A study of Mus musculus with 19 samples.

Results

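The 5 libraries whose titles call them non irradiated, of 19 in the series, were made from abdominal aortas of mice that received angiotensin II (AngII) and no radiation. They are named control 4, 5, 6, 8 and 9, after the numbers in their titles, and only these libraries enter the values given here. The study asked how a moderate dose of radiation acts on experimental abdominal aortic aneurysm, and the other libraries of the series are not described here. Total RNA was taken from the abdominal aorta, and polyadenylated RNA was sequenced (bulk RNA-seq). All mice were male Apoe-/- on a C57Bl/6J background, 8 to 10 weeks old when a subcutaneous osmotic pump was implanted to deliver AngII. Apoe-/- mice carry an inactivated gene for apolipoprotein E, which clears lipoprotein remnants from blood. No mouse among them went without AngII, so the values describe AngII-infused aortas and do not show what AngII did. The study infused some mice for a shorter and others for a longer time, and which applied to each of these mice was not given in the sources used here. Control mice of the study received ketamine and xylazine, the anesthetics used for irradiation, on the days of irradiation.

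The wall of the abdominal aorta is built of a media, in which smooth muscle cells lie between sheets of elastin, and an adventitia of fibroblasts, collagen, small vessels and nerves, lined on the inside by endothelium. Fat tissue surrounds the vessel, and sympathetic ganglia lie close to it. In Apoe-deficient mice, AngII infusion is a standard way to provoke abdominal aneurysms, in which elastin sheets break, leukocytes enter and collagen is remodeled, and mice under the same infusion are known to respond unequally. A bulk library sums all of these cells, so fewer cells of a type and less RNA per cell cannot be told apart.

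The libraries held between 28758369 (control 4) and 63767498 (control 6) counts in genes, which was 67.8 to 76.4% of the reads. Reads that mapped to several places made up 10.4 to 12.4% of reads in control 4, 5 and 6, against 6.23 and 6.65% in control 8 and 9. No pair of libraries was a copy of another. Values per gene are CPM, counts relative to a library total that was adjusted by the trimmed mean of M-values (TMM), and are listed in the order control 4, 5, 6, 8 and 9 unless the library is named. A mean CPM of at least 1 was found for 14202 genes, of at least 100 for 1705 genes and of at least 1000 for 82 genes.

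Apoe, the gene inactivated in all mice, had 12.97, 25.7, 8.50, 21.9 and 8.22 CPM. It was low in all libraries, with control 5 and 8 above the other 3, and a count over the whole gene does not show which part of the transcript was made.

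The 3 markers chosen for the tissue were all detected in all libraries. Acta2, the actin of the smooth muscle contractile apparatus, had 3151, 9233, 18573, 7996 and 8779 CPM, a mean of 9546 ± 5601 CPM (SD, n = 5). Control 6 was highest and control 4 lowest. Col1a1, a chain of type I collagen and a product of fibroblasts, had 4158, 7785, 7350.5, 4938 and 11473 CPM, highest in control 9 and lowest in control 4. Cd14, a receptor for bacterial lipopolysaccharide on monocytes and macrophages, had 9.66, 24.7, 5.37, 7.23 and 418 CPM. Control 9 stood far above the other 4 aortas for Cd14, and the SD of its log2 CPM was 2.55, or 0.97 without control 9. For Acta2 this SD was 0.91, or 0.56 without control 4. Further markers of smooth muscle, endothelium and myeloid cells were present in all libraries. Tagln, another smooth muscle marker, was nearly missing from the counts used, as described at the end. Myh11, the myosin heavy chain of smooth muscle, had 1298, 1872, 5276, 2706 and 1606 CPM, and Pecam1, an adhesion molecule of endothelium, had 229, 242, 118, 279 and 199.8 CPM. Lyz2, the lysozyme of myeloid cells, had 141, 522, 133, 176 and 973 CPM, highest in control 9 and next in control 5.

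The most abundant transcripts came from mitochondria, elastic and collagenous matrix, smooth muscle and fat. Of the 20 genes with the highest mean CPM, 8 lie in the mitochondrial genome, and another 3 (Scd1, Fasn and Fabp4) belong to fatty acid synthesis or to adipocytes. mt-Co1, a subunit of cytochrome c oxidase, had the highest mean, with 55509, 45550.0, 34715, 12834 and 12411 CPM. Eln, which encodes elastin (chr5:134702593-134747323 on the minus strand of GRCm38), was the most abundant nuclear gene by CPM, with 7503, 25896, 49421, 6527 and 34614 CPM and a mean of 24792 ± 18281 CPM (SD, n = 5). Eln was high in control 5, 6 and 9 and low in control 4 and 8. Scd1, the desaturase that makes monounsaturated fatty acids (chr19:44394455-44407879, minus strand), had 36027, 13697, 647, 10817 and 10547 CPM, the highest nuclear gene in control 4. In control 6, Scd1 was 55.7-fold below its value in control 4.

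Sparc, a collagen-binding matricellular protein, had 5746, 11081, 15945, 6417 and 12256 CPM, highest in control 6 and lowest in control 4. Col3a1, the chain of type III collagen, had 3714, 5607, 9416, 4896 and 9633 CPM. Col1a2, the partner chain of Col1a1, had 3584, 6204, 7298, 4884 and 9329 CPM. For these 2 collagen genes control 9 was highest and control 4 lowest. Fn1, which encodes the adhesive matrix protein fibronectin, had 2048, 3382, 13498, 3525 and 6798 CPM, and Bgn, the proteoglycan biglycan, had 2240.4, 4680.4, 9459, 3644 and 6339.9 CPM. Both were highest in control 6 and lowest in control 4. Fasn, the fatty acid synthase, had 18874, 5983, 300.2, 3749 and 2372 CPM, and Fabp4, the fatty acid carrier of adipocytes, had 6689.7, 6329.5, 441, 1694 and 2281 CPM. Both were lowest in control 6. One gene among the 20, ENSMUSG00000119584, is given by its identifier only, since the annotation used holds no symbol for it. Its CPM values were 3808, 5214, 8661, 3965 and 3547.

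The abundant genes were not the steady ones. Among the 20 genes, the highest library exceeded the lowest by 2.44-fold (ENSMUSG00000119584) to 62.9-fold (Fasn). The highest value lay in control 4 for 9 of them and in control 6 for 6, and in no case in control 8. As shown in the plot of abundant genes, the mitochondrial genes had an order of their own, with control 4 and 5 highest, control 6 next and control 8 and 9 lowest. Only mt-Rnr2, one of the mitochondrial ribosomal RNAs, had control 9 above control 6 among these 8 genes, at 8368, 11098, 4488, 1842 and 4622 CPM.

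**Figure D1:**
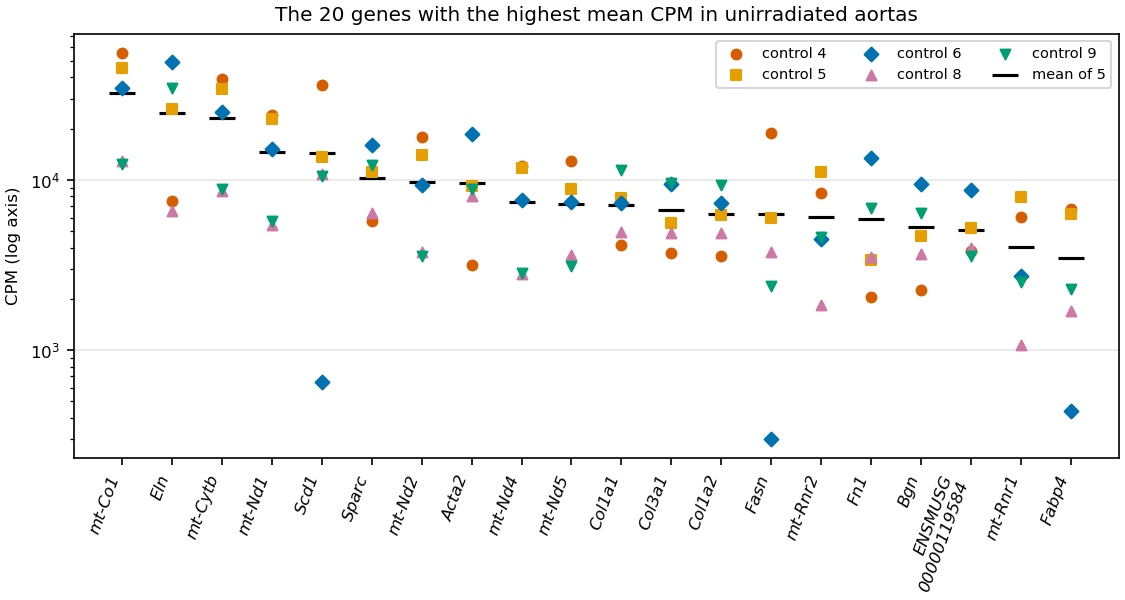
CPM of the 20 genes with the highest mean, on a log axis, with 1 point for each of the 5 control libraries. Fasn and Scd1 span the widest ranges, with control 6 lowest at 300.2 and 647 CPM, whereas the 3 fibrillar collagen genes stay within 2.76-fold.

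Counts grow with transcript length, so genes were compared with each other as TPM, in which counts are divided by exon length before scaling. Among nuclear genes Acta2 led, with 12582 ± 7069 TPM (mean ± SD, n = 5). Eln had 8626 ± 6406 TPM, Scd1 7975 ± 6209 TPM and Sparc 7754 ± 3196 TPM. The differences between these means were smaller than the SD of Acta2 between aortas. These genes were measured in the same 5 libraries, and whether their order holds within each library was not tested. Igfbp7, an insulin-like growth factor binding protein of vessel walls, had 7266 ± 3844 TPM, and Myl9, the regulatory light chain of smooth muscle myosin, had 6049.8 ± 3579 TPM. Mgp, an inhibitor of vascular calcification, had 5465 ± 2629 TPM, and Tmsb4x, which binds actin monomers, had 5091 ± 2158 TPM. Short transcripts entered this list that CPM had placed lower. Hbb-bs, a beta-globin gene, had 5877 ± 5050.4 TPM and Cfd, the adipocyte protease adipsin, had 4386 ± 2560.4 TPM. The globin genes are near-identical copies of each other, so the split of reads between them is uncertain.

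A small number of genes held much of the sequence. The 10 genes with the highest mean took 20.2% of counts in control 4, 18.6% in control 5, 16.9% in control 6, 8.11% in control 8 and 10.6% in control 9. By each library's own ranking, 50% of the counts lay in 328, 346, 291, 843 and 573 genes, so control 8 was the least and control 6 the most concentrated library by that measure.

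By gene class, nuclear protein-coding genes held 88.5 ± 5.77% of the counts in genes (SD, n = 5) and the mitochondrial genome 10.4 ± 5.77%. The mitochondrial share was 17.2% in control 4, 15.2% in control 5, 10.0% in control 6, 4.86% in control 8 and 4.65% in control 9. Since these classes make up nearly all counts, the one mirrored the other. mt-Co2, mt-Atp8, mt-Atp6 and mt-Co3 had nearly no counts, so the mitochondrial share covers the genes that could be counted. Long noncoding RNA genes held 0.424% on average, pseudogenes 0.0955% and genes that the annotation did not match 0.546%. Most of the unmatched share came from ENSMUSG00000119584, which had a mean of 5039 CPM.

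Within the nuclear share, classes defined by name or by list also differed between aortas. Collagen genes took 1.59, 2.82, 3.93, 2.60 and 4.77% of the counts, lowest in control 4 and highest in control 9. Genes of cytosolic ribosomal proteins took 1.68, 3.20, 2.54, 2.30 and 2.81%, a narrower range. Hemoglobin genes took 0.353, 0.594 and 0.624% in control 4, 5 and 6, against 0.00979% in control 8 and 0.112% in control 9. Immunoglobulin genes held 0.00316% on average, so transcripts of plasma cells were scarce. The 95% binomial confidence intervals of these shares (Wilson) reached no more than 0.0141 percentage points to either side, and they cover counting error only.

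**Figure D2:**
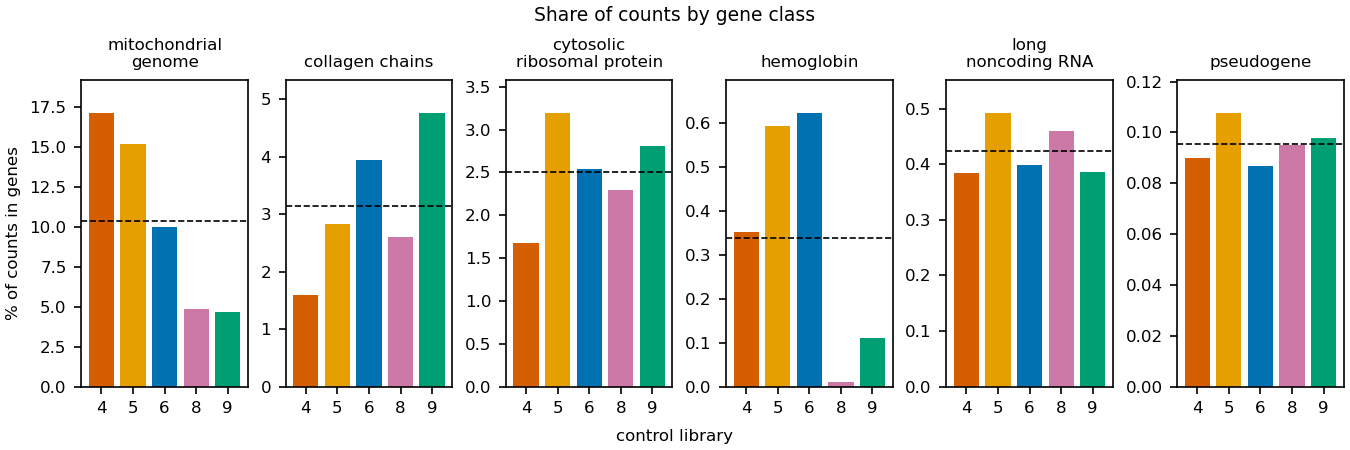
Share of the counts in genes, in percent, taken by 6 gene classes in each of the 5 control libraries, with a dashed line at the mean and an axis of its own for each class. The mitochondrial genome takes 17.2 and 15.2% in control 4 and 5 and under 5% in control 8 and 9.

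The spread of a gene was measured as the SD of its log2 CPM over the 5 aortas, for the 9698 genes with a mean of at least 10 CPM. The median SD was 0.40, and genes at the 5th and 95th percentiles had 0.14 and 1.69. Expressed as a ratio, the highest aorta exceeded the lowest by 1.96-fold for the median gene, by at least 2-fold for 4690 genes (48.4%) and by at least 10-fold for 737 genes (7.60%). An SD over 1 was reached by 1227 genes (12.7%), and an SD under 0.1 by 181 genes (1.87%), or by 276 to 322 genes when 1 of the libraries was left out. The SD that counting error alone would give was 0.042 for the median gene. For 98.8% of the genes the SD was at least 2 times that value, so for these genes most of the spread lay beyond counting error. The titles call the libraries separate samples and the study's methods count mice, so the spread is read as one between mice. The extraction and library preparation of each sample, and any difference in infusion time, cannot be told apart from it. The common biological coefficient of variation, an edgeR estimate from which counting error is removed, was 0.509.

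The spread was wider among the most abundant genes. The median SD was 0.42 for the 2385 genes at 10 to 20 CPM, 0.36 for the 3596 genes at 20 to 50 CPM, 0.38 for the 2012 genes at 50 to 100 CPM and 0.46 for the 1499 genes at 100 to 500 CPM. It was 0.77 for the 206 genes at 500 CPM or more, of which 26.7% had an SD over 1, against 12.7% of all ranked genes. Mitochondrial genes, matrix genes and genes of fat were among these 206 genes.

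**Figure D3:**
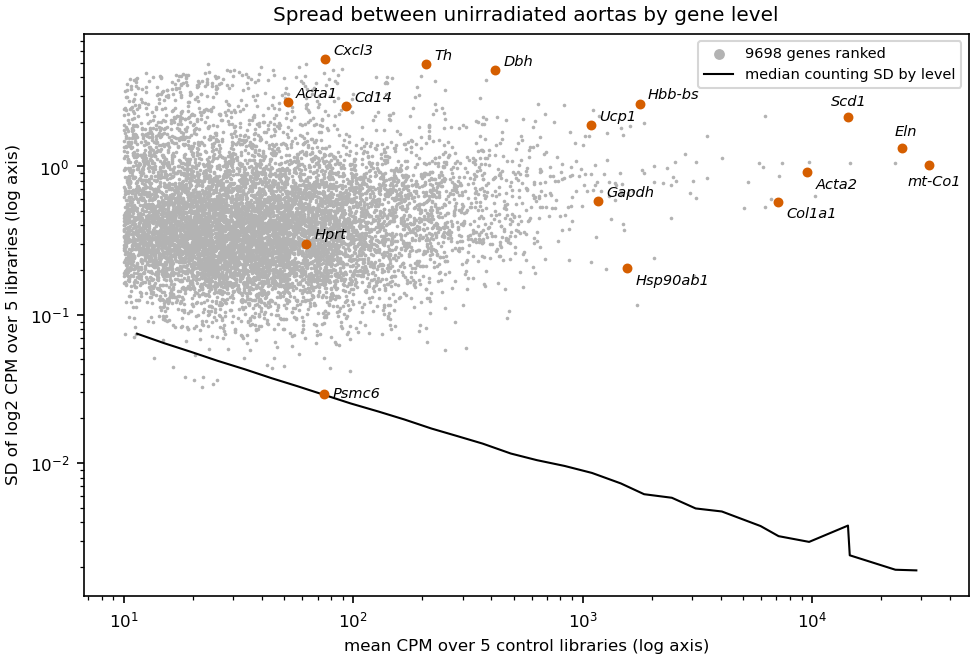
SD of log2 CPM over the 5 control libraries against the mean CPM, both on log axes, with 1 point for each of the 9698 genes and a line for the median counting SD. The median SD lies near 0.4 up to 500 CPM and at 0.77 for genes at or above 500 CPM.

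Single aortas and pairs of aortas carried the spread. Of the 1227 genes with an SD over 1, the highest value lay in control 8 for 455 (37.1%), in control 4 for 351 (28.6%), in control 9 for 288 (23.5%), in control 6 for 71 and in control 5 for 62. The lowest value lay in control 6 for 724 of them (59.0%). Over all 9698 ranked genes these shares were more even, with the highest value in control 4 for 17.9%, in control 5 for 11.5%, in control 6 for 27.5%, in control 8 for 20.6% and in control 9 for 22.4%. Control 4 was lowest for 29.6% of all ranked genes, control 5 for 18.0%, control 6 for 22.4%, control 8 for 15.3% and control 9 for 14.7%. When each gene was described by where the widest gap fell among its 5 values, control 4 and 8 stood together above the others for 343 genes (28.0%). Control 6 alone was low for 232 genes (18.9%), control 9 alone was high for 189 (15.4%), and control 4 and 5 were high together for 102 (8.31%). The first principal component took 59.5% of the variance of log2 CPM, the second 23.4% and the third 14.0%. On the first, control 4 and 8 scored -66.1 and -68.3, and control 5, 6 and 9 scored 24.2, 68.1 and 42.1.

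Gene lists for cell types and pathways were described by the SD of their members, beside the 0.40 median and the 12.7% share with an SD over 1 among all ranked genes. A gene can reach a mean of 10 CPM through a single aorta, so the ranked members are not the whole list, and counts over them are a description. Over all ranked genes, each library was highest for 11.5 to 27.5% and lowest for 14.7 to 29.6% of genes. The widest median SDs belonged to genes of sympathetic neurons, inflammatory cytokines, adrenal medulla, neutrophils, red cells, skeletal muscle and fat, and the narrowest to proteasome and ubiquitin genes.

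**Figure D4:**
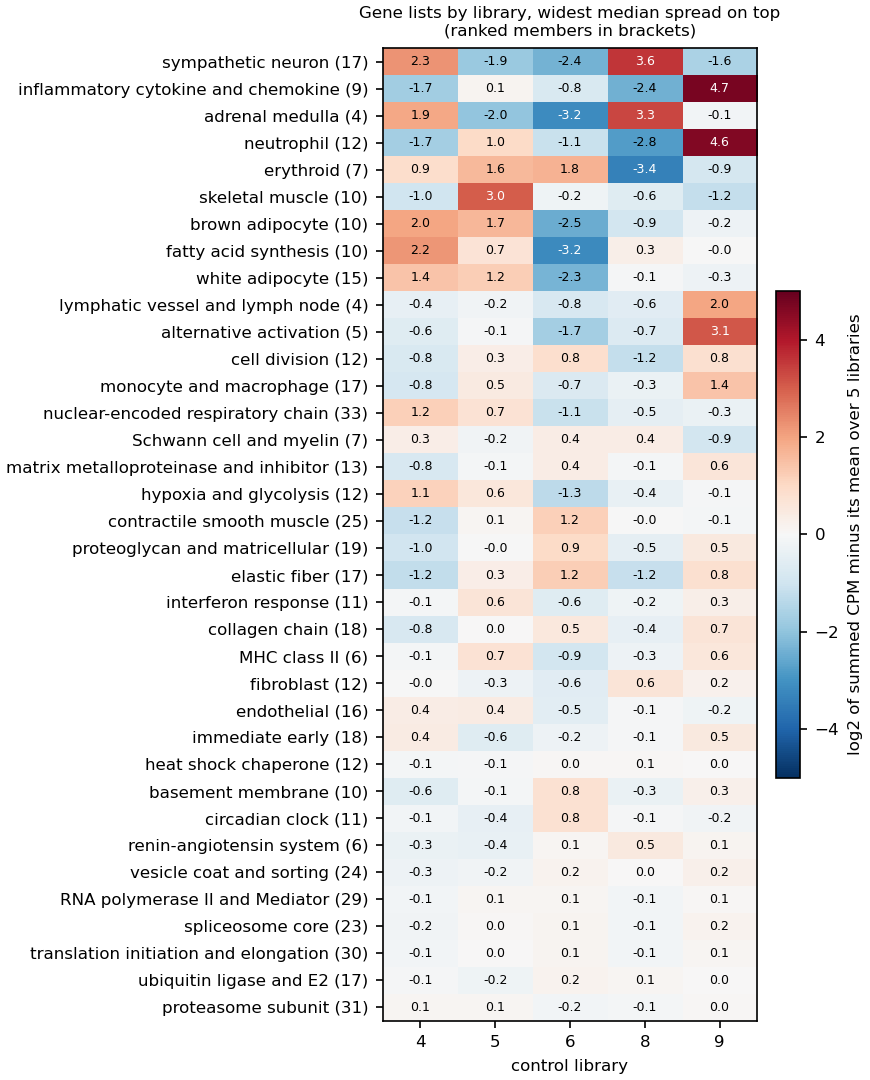
Summed CPM of each gene list in the 5 control libraries, as log2 of the sum minus the mean of these log2 values over the libraries, with blue for low and red for high. Control 4 and 8 stand out for neuron genes, control 9 for neutrophil and cytokine genes, control 6 for low fat genes and control 5 for skeletal muscle genes.

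Of the 20 genes with the largest SD, 17 were highest in control 8 and lowest in control 6, with both control 4 and 8 above the other 3 libraries. Many of them are known from sympathetic neurons, the cells that make noradrenaline and release it onto vessels, and 5 belonged to the list of sympathetic neuron genes. The SDs of these 20 genes ran from 4.21 to 5.28 and their means from 12.5 to 416 CPM. Vstm2l was the last inside this set, with an SD of 4.21, and Ap3b2 the first outside it, with 4.19. Without control 6, 5 of these 20 genes stayed among the 20 with the largest SD, and all 20 stayed in the highest decile of SD.

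Th, tyrosine hydroxylase, the rate-limiting enzyme of catecholamine synthesis (chr7:142892752-142931128, minus strand), had 279.5, 4.87, 0.103, 742 and 10.6 CPM. Dbh, which converts dopamine to noradrenaline (chr2:27165233-27183200, plus strand), had 575, 11.02, 0.650, 1471 and 23.98 CPM. Both enzymes were high in control 8 and 4, intermediate in control 5 and 9, and lowest in control 6. The SD of Th was 4.89, and 3.53 without control 6. That of Dbh was 4.47, and 3.43 without control 6. The transporter that takes noradrenaline back into nerve endings, Slc6a2, had 559, 8.43, 2.79, 1298 and 28.2 CPM, and the same 2 libraries were high.

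The sequence before the start of Th is shown because Th is the catecholamine enzyme whose transcript varied most. The stretch runs from 120 bases before to 10 after the RefSeq start, on the minus strand of GRCm38.p6 (chr7:142899986-142900115), and lies within the span of Th in GENCODE M21, 31133 bases from the start that M21 gives. The annotation behind the deposited counts was not given in the sources used here. Capitals mark TGACGTCA, the 8-base motif known as the cAMP response element, here 45 bases before the start.
Th: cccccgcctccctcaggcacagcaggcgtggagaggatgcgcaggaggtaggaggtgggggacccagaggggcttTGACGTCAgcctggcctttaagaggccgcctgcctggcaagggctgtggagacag
This motif reads the same on both strands and occurred in 2.22% of 20519 promoters of 300 bases in the RefSeq table. The match is a description of the sequence and says nothing on its use in these aortas.

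Receptors, channels and release proteins of neurons followed the order of the enzymes. Chrna3, a nicotinic acetylcholine receptor subunit of autonomic ganglia, had 87.9, 0.802, 0, 219 and 3.50 CPM. It had no count in control 6, which allows up to 0.0513 CPM, so control 8 was at least 4260-fold higher. Its partner subunit Chrnb4, which lies beside it on chromosome 9, had 42.8, 0.481, 0, 96.4 and 1.68 CPM. Htr3a, a serotonin-gated channel, had 121, 3.99, 0.0684, 279 and 5.52 CPM. All 3 receptor genes were highest in control 8 and next in control 4. Chga, chromogranin A of secretory granules, had 63.2, 1.26, 0, 71.2 and 9.36 CPM and differed from the others in that control 4 and 8 were nearly equal.

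Transcription factors and structural proteins of these neurons had the same extremes. Phox2a, which specifies noradrenergic neurons, had 54.01, 0.615, 0.0342, 102 and 2.20 CPM, and Hand1, a basic helix-loop-helix factor, had 40.5, 1.04, 0, 70.2 and 1.04 CPM. Nefm, a neurofilament subunit of axons, had 97.2, 1.93, 0.137, 269 and 3.78 CPM. Rab3c, a small GTPase of synaptic vesicles, had 103, 2.92, 0.0684, 337 and 4.56 CPM, and Cadps, which primes dense-core vesicles for release, had 42.3, 0.481, 0.103, 149 and 1.71 CPM. The remaining genes of this kind among the 20 were Slc10a4, a transporter of synaptic vesicles, Slc7a14, Celf6, an RNA-binding protein of neurons, Ptprn2 of secretory granules, Pnmal1 and Vstm2l. Their values in control 8 lay between 45.2 and 197 CPM, against at most 0.0342 CPM in control 6.

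**Figure D5:**
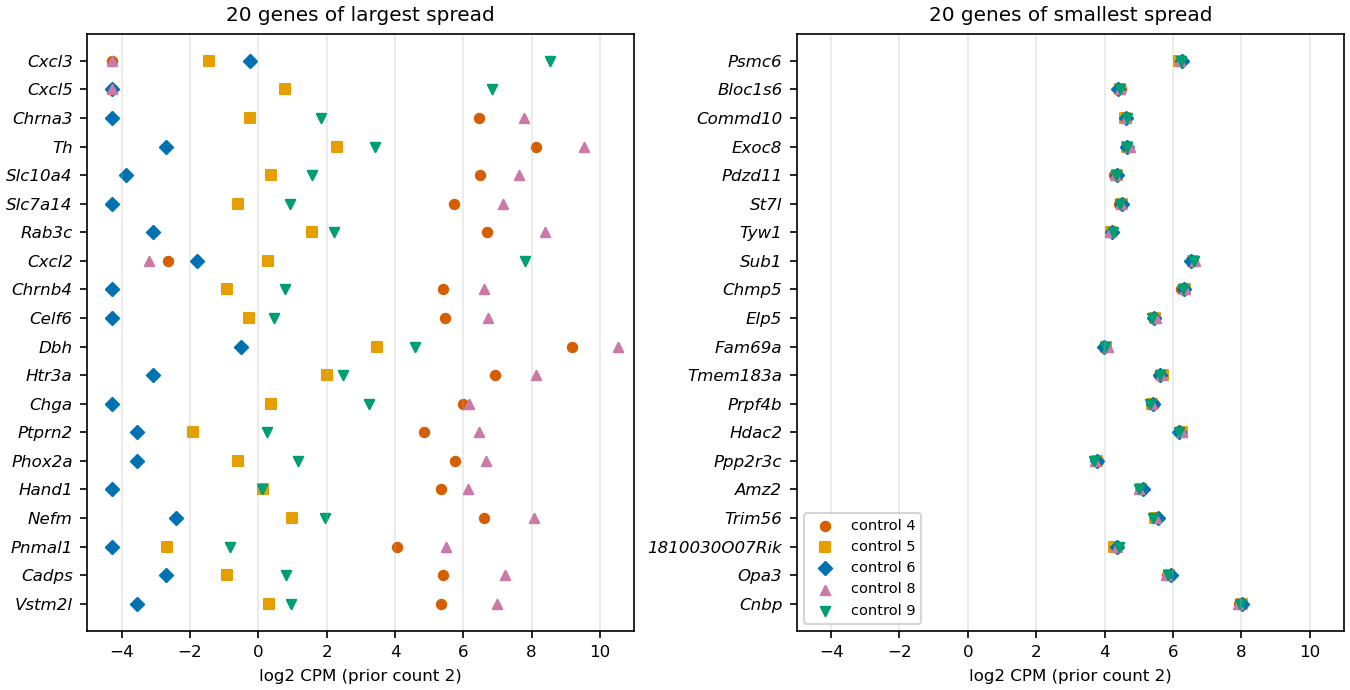
Log2 CPM, with a prior count of 2, of the 20 genes with the largest and the 20 with the smallest SD, with 1 point for each of the 5 control libraries. Genes without a count lie at the left end, the neuron genes have control 8 and 4 at the right, Cxcl2, Cxcl3 and Cxcl5 have control 9 at the right, and the points of the 20 steady genes nearly coincide.

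All 17 genes of the sympathetic neuron list were ranked, all 17 had an SD over 1, and their median SD was 3.82, against 0.40 over all ranked genes. Their summed CPM was 3876, 222, 156, 9579.7 and 271. Control 8 was highest and control 4 next for all 17 genes, and control 6 was lowest for 16 of them. Without control 6 the median SD was 3.09, so the pattern did not rest on that library alone. Even Uchl1 and Tubb3, a deubiquitinase and a tubulin shared by most neurons, differed. Uchl1 had 381, 114, 134, 996 and 95.6 CPM and Tubb3 379.9, 17.4, 3.33, 832 and 23.1 CPM.

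Genes of adrenal chromaffin cells, which share the catecholamine pathway, were examined because the adrenal gland lies near the vessel. Pnmt, the enzyme that makes adrenaline and marks chromaffin cells, was at or near 0, with 0 to 0.176 CPM. Of the 7 genes listed for the adrenal medulla 4 were ranked, and Chga, Chgb and Scg2, granule proteins that neurons make too, had an SD over 1. The summed CPM of 8 adrenal cortex genes was 3.42 to 6.61 in all libraries, with none ranked. Schwann cell genes, which mark the sheaths of nerves, did not follow the neuron genes. Their summed CPM was 845, 595, 873, 857 and 354, lowest in control 9 and highest in control 6, which lacked most neuron transcripts. The median SD of the 7 ranked Schwann cell genes was 0.92, and 0.51 without control 9. The part of ganglion tissue in these values was not tested.

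Control 9 was set apart by chemokines and by genes of neutrophils and macrophages. Cxcl3, a chemokine that attracts neutrophils (chr5:90786103-90789600, plus strand), had the largest SD of all ranked genes, with 0, 0.321, 0.804, 0 and 375 CPM. Control 4 and 8 had no count, which allows up to 0.110 and 0.0879 CPM, and control 9 was at least 3398-fold above the higher of these limits. Cxcl2, from the same chemokine cluster on chromosome 5, had 0.110, 1.18, 0.239, 0.0586 and 223 CPM, and Cxcl5 had 0, 1.69, 0, 0 and 115 CPM. All 3 chemokines had control 9 above 100 CPM and the other 4 libraries below 2 CPM. The SD of Cxcl3 was 5.28, and 2.07 without control 9, and that of Cxcl2 was 4.50, and 1.55 without it.

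The stretches before the starts of Cxcl3 and Cxcl2 are shown because both genes were nearly silent outside control 9 and share a motif, which was chosen after the values were seen. They run from 120 bases before to 10 after the RefSeq start on the plus strand of GRCm38.p6, at chr5:90785981-90786110 for Cxcl3 and chr5:90903779-90903908 for Cxcl2. Capitals mark GGGAATTTCCC, which holds GGGA and TTCC with any 2 bases between them, a form of the NF-kB motif, on both strands with an overlap, and TATAAA, the TATA box, in Cxcl3.
Cxcl3: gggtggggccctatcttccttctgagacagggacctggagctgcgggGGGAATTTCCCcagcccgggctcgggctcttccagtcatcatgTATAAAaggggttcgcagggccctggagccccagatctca
Cxcl2: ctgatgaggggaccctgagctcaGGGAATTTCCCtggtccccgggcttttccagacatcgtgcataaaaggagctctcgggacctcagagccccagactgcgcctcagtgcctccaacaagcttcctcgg
This form of the NF-kB motif occurred, on either strand, in 1.45% of 20519 RefSeq promoters of 300 bases, and TATAAA between 40 and 20 bases before the start in 2.55%. In Cxcl3 the TATA box begins 30 bases before the start. These matches describe the letters of the stretches only.

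Other cytokines shared the pattern. Ccl2, which attracts monocytes, had 0.882, 13.6, 5.13, 1.76 and 307 CPM, and Ccl7, of similar action, had 1.14, 15.5, 2.98, 1.17 and 162 CPM. Control 9 was highest for both. Of the 19 cytokine and chemokine genes listed, 18 were highest in control 9, against 22.4% of all ranked genes. A gene of this list could be ranked through control 9 alone, and 9 were ranked. Their median SD was 3.79, against 0.40 over all ranked genes, and 1.72 without control 9. Summed over the list, CPM values were 19.6, 72.2, 38.1, 12.4 and 1744.

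The calprotectin genes S100a8 and S100a9, which are among the most abundant transcripts of neutrophils, had the same high library. S100a8 had 3.97, 25.5, 6.31, 0.469 and 299.5 CPM and S100a9 had 5.00, 32.98, 6.91, 0.322 and 378 CPM. Control 9 was highest, control 5 next and control 8 lowest. Mmp9, a gelatinase that neutrophils store and macrophages make, had 7.61, 6.37, 4.00, 6.30 and 179 CPM. Its SD was 2.22, and 0.39 without control 9, so the other 4 aortas were alike. Of the 19 neutrophil genes listed, 16 were highest in control 9, against 22.4% of all ranked genes. A gene of this list could be ranked through control 9 alone, and 12 were ranked. Their median SD was 3.46, against 0.40 over all ranked genes, and 1.77 without control 9. The neutrophil and cytokine lists share 2 genes, Cxcl2 and Il1b.

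Macrophage genes were less uneven. C1qa, a complement subunit made by resident macrophages, had 70.7, 222, 36.8, 78.3 and 178 CPM, highest in control 5 rather than control 9. Cd9, a tetraspanin that many cells make, had 174, 215, 379, 318 and 401 CPM. Of the 21 monocyte and macrophage genes listed, 17 were ranked, 13 were highest in control 9 and 3 in control 5, and 14 were lowest in control 6. Their summed CPM was 703, 1732, 751, 993 and 3410.3, and their median SD was 1.06, or 0.83 without control 9.

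Arg1, arginase, a gene of alternatively activated macrophages (chr10:24915221-24927484, minus strand), had 5.22, 9.52, 3.40, 3.43 and 929 CPM. Its SD was 3.43, and 0.72 without control 9. Chil3, a chitinase-like protein of such macrophages and of neutrophils, had 0.808, 4.49, 2.03, 0.351 and 165 CPM. Retnla, another gene counted among the markers of alternative activation, had 45.7, 32.7, 9.83, 29.1 and 17.2 CPM, and its highest library was control 4. Of the 9 genes of this list, 8 were highest in control 9, against 22.4% of all ranked genes. A gene of this list could be ranked through control 9 alone. Among the 5 ranked genes, 4 were highest there and Retnla was not. Their median SD was 1.39, or 0.76 without control 9.

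Lymphocyte genes were near the limit of the ranking. No T cell gene and no gene of natural killer cells reached a mean of 10 CPM, and the 15 T cell genes summed to 9.84 to 17.5 CPM in all libraries. Genes of MHC class II, which present antigen, had a median SD of 0.66. Cd74, the invariant chain, had 165, 282, 85.99, 147 and 290.4 CPM, with control 5 and 9 high. Of the 6 ranked genes of this list 5 were highest in control 5 and 5 lowest in control 6. Pdpn, podoplanin, which is made by lymphatic endothelium and also by other stromal cells and macrophages, had 7.02, 23.5, 6.75, 14.8 and 186 CPM, and was high in control 9, whereas Flt4, a receptor of lymphatic endothelium, had 17.5, 17.5, 14.7, 9.81 and 15.7 CPM.

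Genes of fat were low in control 6. Lpl, lipoprotein lipase, had 2508, 2409, 147, 762 and 586 CPM, and Pnpla2, the triglyceride lipase of fat droplets, had 2531, 1532, 140.2, 530.4 and 621 CPM. Cfd, adipsin, had 2089, 2815, 114, 1323 and 1038 CPM. Control 6 was lowest for each of them, and control 4 or 5 highest. Of the 16 white adipocyte genes listed, 15 were ranked, 14 had an SD over 1 and 14 were lowest in control 6. The median SD was 1.69, and 0.86 without control 6, and the summed CPM was 21541, 18414, 1569, 7568 and 6634.

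Brown fat genes had the same low library and a wider gap between control 4 and 5 and the rest. Ucp1, the uncoupling protein that makes heat in brown adipocytes, had 2396, 2037, 107, 291 and 597 CPM. Cidea, a fat droplet protein of brown fat, had 1422, 941, 38.5, 164 and 196 CPM, and Cox8b, a cytochrome oxidase subunit of brown fat and muscle, had 831, 742, 22.8, 112 and 139.6 CPM. For all 10 ranked brown adipocyte genes control 4 and 5 lay above the other 3 libraries. Their median SD was 1.99, against 0.40 over all ranked genes.

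Genes of fatty acid synthesis were lowest in control 6 too. Acly, which supplies acetyl-CoA from citrate, had 4925, 1207, 147, 1266 and 489 CPM, and Thrsp, a regulator of lipid synthesis, had 3644, 1322, 72.6, 602 and 249 CPM. Of the 10 genes of this list all were highest in control 4 and lowest in control 6. Their summed CPM was 69345, 24258, 1663, 18426 and 14849, so control 4 stood far above control 5, whereas their white adipocyte sums were close. Over this list the median SD was 1.93, and 1.22 without control 6. The SD of Scd1 was 2.17, and 0.83 without control 6.

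Nuclear genes of the respiratory chain moved with the mitochondrial genome only in part. Atp5b, the beta subunit of ATP synthase, had 3706, 2234, 653, 1197 and 1322 CPM, and Sdha, a subunit of succinate dehydrogenase, had 1707, 975, 206, 472 and 504 CPM. For all 33 members control 4 and 5 lay above the other 3 libraries, as they did for the mitochondrial share. Control 6, however, was lowest for 31 of the 33 nuclear genes but held a mitochondrial share of 10.0%, against 4.86% in control 8. The part of fat tissue in these values was not tested.

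Red cell transcripts were scarce in control 8. Hbb-bs had 1715, 3060.5, 3556, 41.9 and 495 CPM and Hba-a1, an alpha-globin gene, had 904, 1492, 1456, 20.3 and 284 CPM. Control 8 was lowest, control 9 next and the other 3 libraries high. Of 7 ranked erythroid genes, 6 had an SD over 1 and 6 were lowest in control 8. Their median SD was 2.63, and 1.23 without control 8. Blood left in the vessel was not measured, and its part in these values was not tested.

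Skeletal muscle transcripts were high in control 5. Acta1, skeletal muscle actin, had 4.08, 230.0, 12.2, 10.9 and 1.40 CPM, and Tnnt3, troponin T of fast fibers, had 3.01, 132, 6.89, 6.74 and 1.66 CPM. Casq1, which stores calcium in muscle, had 13.5, 61.02, 51.8, 11.7 and 37.3 CPM, and its values in control 6 and 9 were closer to that in control 5. Of the 17 members listed, 15 were highest in control 5, against 11.5% of all ranked genes. A member could be ranked through control 5 alone. The 10 ranked members had a median SD of 2.51, and it was 1.30 without control 5. The summed CPM of 61.7, 1026, 107, 81.2 and 54.1 shows 1 high library and 4 of similar level. Skeletal muscle lies behind the abdominal aorta, and whether any was taken with control 5 was not tested.

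Summed CPM of genes of dividing cells was lowest in control 8 and next in control 4. By the widest gap, control 8 alone was low for 5 of the 8 genes with an SD over 1. Mki67, present in cycling cells, had 15.2, 32.6, 51.2, 3.51 and 45.4 CPM, and Top2a, a topoisomerase of dividing cells, had 18.96, 35.3, 58.2, 4.57 and 51.8 CPM. Pcna, the replication clamp, had 31.3, 52.9, 60.1, 38.2 and 68.6 CPM, a narrower range. Of 22 cell division genes listed, 12 were ranked, 8 had an SD over 1, and control 8 was lowest for 9. Control 9 was highest for 8 and control 6 for 4. Among the 12 genes the median SD was 1.19, and 0.77 without control 8.

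The contractile genes of smooth muscle shared their highest library, whereas the matrix genes of the wall did not. Flna, an actin cross-linker, had 1393, 2931, 7019.6, 3276 and 2752 CPM, and Myl9 had 1019.5, 2519, 5090.0, 1885 and 1826 CPM. Tpm2, a tropomyosin, had 508, 1722, 2756, 1125 and 1184 CPM. Control 6 was highest for all 25 contractile genes, and control 4 lowest for 23. Only Cnn1, calponin, of the 25 had an SD over 1, with 339, 1198, 2388, 767 and 977 CPM, yet the median SD of 0.83 was above the 0.40 of all ranked genes. Without control 6 it was 0.56. The summed CPM of the list was 11560.0, 27633, 58130.0, 25198 and 24209. The level of Tagln, a member, is uncertain, because most of its exon bases are shared with genes on the other strand.

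Of the 17 elastic fiber genes, 7 were highest in control 6, 6 in control 9, 3 in control 8 and 1 in control 5, against 27.5% in control 6 and 22.4% in control 9 over all ranked genes. Lox, the oxidase that cross-links elastin and collagen, had 184, 559, 902, 275 and 1534 CPM, highest in control 9. Mfap4, a microfibril-associated protein, had 424, 723, 1282, 465 and 752 CPM. Ltbp4, which binds latent TGF-beta, had 625, 446, 723, 1096 and 662 CPM and was highest in control 8. Eln and Lox were the only members with an SD over 1, and the median SD was 0.77. Fbn1, the microfibril protein fibrillin-1, had 199.9, 416, 661, 302 and 951 CPM.

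Collagen genes were lowest in control 4 for 16 of 18 ranked chains and highest in control 9 for 10. Over all ranked genes these shares were 29.6 and 22.4%. Col18a1, a basement membrane collagen, had 799.7, 2082, 4845, 1405 and 2564 CPM. Control 6 was highest for Col18a1. Over the ranked chains the median SD was 0.75. Postn, periostin, a matricellular protein of healing tissue, had 725, 2505, 6149, 1267 and 3389 CPM, with the order of the elastic fiber gene Eln except that control 4 was lowest. It belongs to the proteoglycan and matricellular list, of which 19 of 20 genes were ranked and 8 had an SD over 1, with SDs from 0.26 to 2.55. Control 6 was highest for 8 of these 19 genes and control 9 for 5, against 27.5 and 22.4% of all ranked genes, so control 9 was near its share.

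Among the proteinases and inhibitors that act on this matrix, Timp1 varied most. It encodes an inhibitor of metalloproteinases induced in inflammation and had 15.5, 258, 81.95, 29.5 and 724 CPM, with control 9 highest and control 5 next. Timp2 had 555, 766, 1188, 1020.2 and 968 CPM and Mmp2, the gelatinase of stromal cells, had 172, 192, 176, 299 and 252 CPM. Mmp2 had an SD of 0.35, below the median of all ranked genes, whereas Mmp9 had 2.22. Timp3, an inhibitor bound to the matrix, had 157, 177, 611, 330.1 and 412 CPM, and its level is uncertain, because the counts on both strands together came to 2.78 times the count used.

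Fibroblast and endothelial genes had lower median SDs than the contractile, elastic fiber and collagen genes. Gsn, the actin-severing protein gelsolin, had 1556, 838, 1026, 2781 and 1109.5 CPM, highest in control 8, and Pi16, a marker of adventitial fibroblasts, had 222, 266, 203, 292 and 595 CPM, highest in control 9. None of the 12 fibroblast genes had an SD over 1, and their median SD was 0.64. Cdh5, the cadherin of endothelial junctions, had 199.8, 157, 56.1, 81.2 and 101 CPM, and Vwf, von Willebrand factor, had 126, 123, 87.7, 203 and 177 CPM. Control 6 was lowest for Pecam1, Cdh5 and Vwf. Plvap, a protein of endothelial pores, had 92.4, 174, 116, 67.6 and 94.8 CPM, and there control 5 was highest and control 6 next. Of the 16 endothelial genes 11 were lowest in control 6 and 2 had an SD over 1, and the median was 0.63.

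Genes of the renin-angiotensin system bear on the agent infused. Ace, the enzyme that makes AngII, had 143, 154, 225, 293 and 273 CPM, and Enpep, an aminopeptidase that degrades it, had 29.4, 38.2, 86.1, 34.8 and 45.00 CPM, highest in control 6. Agtr1a, the main AngII receptor of mouse vessels, was chosen after its values were seen. It had 26.5, 4.68, 1.95, 91.8 and 4.46 CPM, and control 8 and 4 were high, the libraries with the high neuron transcripts. Its SD was 2.24, against 0.47 for Ace. In all, 6 of 12 listed genes were ranked, and Agtr1a was the 1 with an SD over 1.

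Clock genes change with the hour of the day in most tissues. Nr1d1, a repressor within the clock, had 73.96, 78.8, 205, 87.8 and 103 CPM, a level that is uncertain because the counts on both strands came to 1.78 times the count used. Tef, a clock output factor, had 72.5, 49.4, 143, 79.9 and 51.9 CPM. Clock itself had 45.9, 49.6, 49.9, 53.5 and 48.8 CPM and an SD of 0.08. Control 6 was highest for 7 of 11 ranked clock genes, against 27.5% of all ranked genes. Their median SD was 0.53, and 0.25 without control 6, so the other 4 aortas were close to each other.

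The 20 genes with the smallest SD had SDs of 0.029 to 0.058, means of 13.5 to 251 CPM, and a highest library that exceeded the lowest by 1.05-fold to 1.11-fold. For 8 of them the SD was below that of counting error, so counting error limits how they can be ranked. With scaling by library size alone in place of TMM, none of these genes stayed among the 20 smallest, and with 1 library left out 5 to 9 of them did. The exact set thus depends on the scaling and on each library. In all of these settings, however, all 20 genes stayed in the lowest decile of SD. Cnbp was the last inside this set, with an SD of 0.0576, and Dnajb12 the first outside it, with 0.0577.

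Psmc6, an ATPase subunit of the regulatory particle of the proteasome (chr14:45329788-45349705, plus strand), had the smallest SD, 0.029, with 73.7, 72.5, 76.3, 74.6 and 75.7 CPM. Hdac2, a histone deacetylase, had 72.3, 76.8, 72.8, 77.7 and 72.3 CPM. Cnbp, a nucleic acid-binding zinc finger protein, had 247, 259.6, 262, 237 and 251 CPM and was the most abundant of the 20. In these genes the 5 aortas nearly coincided, although the same libraries were far apart for Th and Cxcl3. Sub1, a transcription coactivator, had 95.6, 96.3, 92.7, 99.6 and 99.1 CPM, and Chmp5, a protein of the ESCRT machinery that sorts membrane cargo, had 75.6, 81.1, 80.1, 81.2 and 78.1 CPM. Exoc8, a subunit of the exocyst that tethers vesicles, had 25.2, 25.04, 25.05, 26.6 and 25.2 CPM, with control 8 slightly above the rest. The others were Bloc1s6, Commd10, Pdzd11, St7l, Tyw1, Elp5, Fam69a, Tmem183a, Prpf4b, Ppp2r3c, Amz2, Trim56, 1810030O07Rik and Opa3.

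The stretch before the start of Psmc6 is shown beside those of Th and Cxcl3 as that of the steadiest gene. It runs from 120 bases before to 10 after the RefSeq start on the plus strand of GRCm38.p6 (chr14:45329704-45329833) and holds none of the 3 motifs searched, so nothing is in capitals.
Psmc6: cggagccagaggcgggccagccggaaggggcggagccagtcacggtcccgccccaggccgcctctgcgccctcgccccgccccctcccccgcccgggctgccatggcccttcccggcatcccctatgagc
Only 79.0% of the ranked genes had a promoter in the RefSeq table, so promoters were not compared between groups of genes.

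The proteasome as a whole was steady. All 31 subunits were ranked, none had an SD over 1, and the median SD was 0.17, against 0.40 over all ranked genes. Psmd2, a scaffold of the regulatory particle, had 236, 211, 190.4, 213 and 243 CPM, and Psmb4, a subunit of the catalytic core, had 165, 195, 151, 157 and 168 CPM. The summed CPM was 3648, 3561, 3035, 3163 and 3484, a range of 1.20-fold. Ubiquitin ligases and conjugating enzymes had a median SD of 0.18, translation factors 0.22, spliceosome proteins 0.25, RNA polymerase II and Mediator subunits 0.26, and vesicle coat proteins 0.31. None of these lists had a ranked member with an SD over 1. Eef1a1, the elongation factor that brings transfer RNA to the ribosome, had 2659, 2978, 3618, 2733 and 3236 CPM and an SD of 0.18.

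The genes that the study used as references in RT-qPCR were not among the steadiest. Gapdh, a glycolytic enzyme, had 1989, 1228, 653, 961 and 998 CPM and an SD of 0.59. Actb, cytoskeletal actin, had 1492, 3168, 3703, 1909.6 and 4464 CPM and an SD of 0.66. Both lay above the median SD of all ranked genes, Gapdh with control 4 highest and Actb with control 4 lowest. Ywhaz, a 14-3-3 protein, had 183, 190.0, 255, 309.7 and 281 CPM and an SD of 0.34, and Hprt, an enzyme of purine salvage, had 65.8, 55.02, 50.1, 85.4 and 55.9 CPM and an SD of 0.30. These 2 lay below the median. Of the study's 24 RT-qPCR targets, 19 were ranked, 6 had an SD over 1, and their median SD was 0.89.

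Genes that respond quickly to handling or stress had median SDs above the 0.40 of all ranked genes. The median SD was 0.63 for immediate early genes and 0.59 for heat shock genes. Dusp1, an early response phosphatase, had 283, 109.7, 236, 254 and 254 CPM, and Jun, an AP-1 subunit, had 249, 78.2, 142, 131 and 157 CPM, both lowest in control 5. Of 18 ranked immediate early genes, 5 had an SD over 1, against 12.7% of all ranked genes. Junb, another AP-1 subunit, had 40.4, 68.5, 62.9, 52.1 and 279 CPM and was high in control 9. Among heat shock genes Hsp90ab1, a constitutive chaperone, had 1641, 1482, 1337, 1929.7 and 1434 CPM and an SD of 0.21, while Hspb1, a small heat shock protein of muscle cells, had 208, 365, 609, 209 and 367 CPM and an SD of 0.65. None of the 12 heat shock genes had an SD over 1.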

How the data were processed

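Total RNA of abdominal aortas was sequenced as polyadenylated RNA with a TruSeq Stranded mRNA kit. Alignment by the authors used STAR 2.7.9a and the GRCm38 build. They deposited raw counts per gene, 1 file per library, in which reads that map to several places or to overlapping genes are not counted. The annotation release was not given in the sources used here. The unstranded counts were used, since the first-strand and second-strand columns of these libraries were near equal (second strand 49.95 to 50.14%), so reads of a gene and of its antisense partner cannot be told apart.

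Only the 5 control libraries, grouped by their titles, entered, with 28758369 to 63767498 counts in genes each. They differed from each other by more than counting error. Counts were scaled with TMM factors (edgeR 4.0.16, R 4.3.3), and log2 CPM used a prior count of 2. Genes with a mean of at least 10 CPM were ranked by the SD of log2 CPM. The method was tested only on simulated counts that varied less between libraries than these aortas do. That test therefore does not show how well the ranking works at the spread seen here. Counting SD was computed from the counts as for Poisson error. TPM used exon lengths and symbols of GENCODE M21, which matched 52081 of 55414 identifiers. With 1 group no test was run and no p-value is given.

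Genes to name were drawn from the 20 genes highest by mean CPM, the 10 nuclear genes highest by TPM, the 20 genes at each end of the spread, the markers, Apoe, RT-qPCR genes and the 4 most abundant members of each gene list, not all of which are given. Of these, 3 genes are not reported here. The genes and lists were chosen with earlier results of these data known. Alternatives were other scalings, CPM minimums, prior counts, spread measures, the second strand, mitochondrial genes left out, TPM and each library left out. The sum of both strands was added after the data were seen.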

Additional observations from a re-analysis of the deposited data

Results flagged for a closer look

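In a group of 5, a library was taken as far from the others when its gap to the nearest one, as a share of the whole range, exceeded Dixon's critical value of 0.71. Of 222 results examined, 11 did so, which is about the 1 in 20 groups that chance alone gives. Of all ranked genes, 314 (3.24%) did so.

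Control 9 was the distant library for 5 of the 11. Mmp9 was high there, with a gap of 0.832 of its range, and Arg1 with 0.818. Junb, an AP-1 subunit, was high with 0.727, and the lymphatic vessel and lymph node list with 0.778, where the summed CPM was 282 in control 9 and 40.6 to 62.4 in the others. Mbp, a myelin protein, was low there with 0.790, at 37.8 CPM against 129 to 179 CPM in the other 4 libraries.

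Control 5 was distant for the skeletal muscle list, high with a gap of 0.769, and for Dusp1, low with 0.809. Control 6 was high for the circadian clock list, with 0.718 and a summed CPM of 818 against 364 to 457. Control 4 was high for the natural killer cell list, with 0.774, at a sum of 3.82 CPM against 1.85 to 2.18, which is near the limit of detection for each gene. Control 8 was high for Exoc8, with 0.895, although all its values lay between 25.04 and 26.6 CPM, and low for Rsad2, with 0.793, at 8.43 CPM against 39.6 to 59.2 CPM in the others. None of these was tested further.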

How the results depend on the processing

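The median SD, the biological coefficient of variation (0.486 to 0.530 with 1 library left out) and the share of the first principal component (43.3 to 71.4%) stayed within 1.5 times under every alternative run. No paired analysis was possible because 1 group was described. The 1227 genes with an SD over 1 became 2654 with a minimum of 1 CPM, 443 with 50 CPM and 5511 with none, and 1109 to 1434 with 1 library left out. The 181 genes with an SD under 0.1 became 66 with library size alone, 67 with 50 CPM and 276 to 322 with 1 library left out. Of the 20 genes of largest spread, 12 were shared with a prior count of 0.5, 8 with 50 CPM, 9 with edgeR tagwise dispersion, 9 with DESeq2 gene-wise dispersion, 13 with the median absolute deviation and 5 to 17 with 1 library left out, 5 without control 6. Of the 20 of smallest spread, 0 were shared with library size alone, 6 with 50 CPM, 13 with the second strand, 2 with the median absolute deviation and 5 to 9 with 1 library left out. The minimum does not change the SD of a gene, so those lost from both sets with 50 CPM are genes under that mean. With 1 library left out, 17 to 20 of the largest set stayed in the highest decile of SD. All 20 of the smallest set stayed in the lowest decile. TPM put 24.5% in the 10 highest genes and shared 12 of the 20 most abundant. Without mitochondrial genes, protein-coding genes held 98.7%, long noncoding RNA 0.475% and pseudogenes 0.107%, and on the second strand these last were 2.10% and 0.132%. Of 529 values of 40 genes of extreme spread, 45 moved by over 1.5 times, and 11 of 190 list medians with 1 library left out. With 5 libraries an SD is itself imprecise, and differences near the counting SD were not detectable at this depth.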

Other observations

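Aldoa, a glycolytic enzyme, had 4227, 2522, 661, 1565 and 1254 CPM in control 4, 5, 6, 8 and 9, and Ldha, lactate dehydrogenase A, had 1360.3, 1327, 335, 539 and 929 CPM. Both were lowest in control 6, as the genes of fat were. Rsad2, an interferon-induced antiviral protein, had 39.6, 55.5, 41.3, 8.43 and 59.2 CPM, and Bst2, tetherin, had 68.9, 142, 35.5, 43.8 and 63.6 CPM. Control 8 was lowest for Rsad2 and control 5 highest for Bst2. Xbp1, a transcription factor of secretory cells, had 97.8, 127, 199, 119 and 324 CPM, with control 9 highest.

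Tagln, the smooth muscle protein SM22, was looked at after its values were seen, because it was nearly missing from these counts. It lies at chr9:45929619-45936058 on the minus strand of GRCm38 and had 10.4, 39.9, 60.9, 21.5 and 26.6 CPM. Its unstranded counts summed to 7096 over the 5 libraries, whereas the counts of both strand columns summed to 1301320. Of its 1988 exon bases, 67.9% are shared with genes on the other strand in GENCODE M21, 62.4% with Gm48529 alone, and reads over such bases are not counted when strand is ignored. By the sum of both strands Tagln averaged 5719 CPM and stood at rank 17 rather than 5425. Over all, 392 ranked genes (4.04%) had a sum over 1.5 times the count used, and 697 genes under 10 CPM reached that level. Gnas, a G protein subunit, had 18390 against 387151, and Ilk, integrin-linked kinase, 179 against 63563. Of 165 genes examined for the text, a set that leaves out Tagln, Gnas and Ilk, this applied to 3: Timp3, Nr1d1 and Fam69a. The gene lists also hold members outside these 165 genes.

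Within the mitochondrial genome a stretch was nearly without counts. mt-Co2, mt-Atp8, mt-Atp6 and mt-Co3, between bases 7013 and 9390, had 0 to 4 counts in each library, whereas mt-Co1 and mt-Nd4 on either side were among the most abundant genes. mt-Nd3 had 0.674 to 2.94 CPM and mt-Nd4l no count. Reads that map to several places are not counted, and their part in this was not tested. The mitochondrial shares given are therefore shares of the genes that could be counted.

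The mesothelial genes summed to 8.59 to 16.9 CPM and had no ranked member. The mast cell genes had 2, Kit and Hdc, a receptor and the enzyme of histamine synthesis. Kit had 31.7, 9.23, 46.7, 30.2 and 11.4 CPM and Hdc 4.00, 7.33, 1.66, 3.07 and 92.4 CPM, the last of them high in control 9 alone.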
